A study of Homo sapiens with 4 samples.

Results

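Genes of fibroblast growth factor (FGF) signalling and of the feedback on its kinase ERK were described in H9, a widely used human embryonic stem cell line kept here in the primed state. The 8 genes are FGF2, FGF4, FGFR1, DUSP6, SPRY2, SPRY4, ETV4 and ETV5, picked by name from a deposited table of 16174 genes. Of these, 7 have a row in the table, and FGF4 is not analysed here. A value above 0 in all 4 libraries was listed for 6 of them, and the same 6 had a mean of at least 1 TPM, the level needed for testing.

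All libraries came from cells that carried a doxycycline-inducible dCas9-BFP-KRAB on a piggyBac vector, a nuclease-dead Cas9 joined to a repressor domain, and that were selected with puromycin. One arm received 4 pooled guides against the long non-coding RNA gene SNHG26 and the other received non-targeting control guides. Each arm gave 1 library after 2 days and 1 library after 3 days of doxycycline, so the 2 libraries of an arm differ in day and the 2 libraries of a day differ in guides. Doxycycline and the repressor were shared by every library, and the labels do not say that the libraries of an arm came from separate transfections, so p-values measure only the spread between these libraries.

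FGF ligands bind receptor tyrosine kinases at the cell surface, with heparan sulphate as a cofactor, and the receptors pass the signal through RAS, RAF and MEK to ERK. ERK activity induces its own inhibitors, the DUSP phosphatases and the Sprouty proteins, together with ETS transcription factors such as ETV4 and ETV5, so transcripts of these genes are commonly read as an output of the pathway. Primed human embryonic stem cells depend on FGF for self-renewal, and the mTeSR1 medium in which these cells were kept supplies recombinant FGF2.

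The libraries were shallow, with at most 947338 to 1220265 reads each on the listed genes when every read is placed on the full gene span. Reads on genes without a row are not in these numbers. SNHG26, the targeted gene, was listed at 0 TPM (day 2) and 0.933 TPM (day 3) with the SNHG26 guides and at 2.98 and 4.03 TPM with the control guides. The difference of -1.69 on log2(TPM + 1) had a limma unadjusted p of 0.0417 and an adjusted p of 0.935. It did not pass the threshold of 0.05. Read numbers were not worked out for SNHG26, and values this low can rest on few reads. HYCC1, on the opposite strand, overlaps SNHG26 by 24415 bases as listed. HYCC1 stood at 1.30 and 0.901 TPM with the SNHG26 guides and at 1.42 and 2.68 TPM with the control guides. It too was lower in both libraries of the SNHG26 arm, and its part in the SNHG26 difference was not tested. Of 10 markers of primed pluripotent cells, 9 were listed, and POU5F1 stood between 1050 and 1212 TPM and SOX2 between 241 and 307 TPM. ZIC2 was listed at 0 in all 4 libraries. Of 8 mesendoderm markers 2 were listed, with a summed level of 0 to 1.98 TPM and EOMES at 0. Of 8 amnion and trophectoderm markers 2 were listed, with a summed level of 0 to 1.29 TPM and ISL1 at 0. Of 5 neuroectoderm markers only NES was listed, at 17.1 to 24.5 TPM, and of 5 fibroblast markers COL1A1 and COL1A2 were listed. Markers without a row are not analysed here.

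TPM scales reads by length and by library. The length listed in this table is the genomic span with introns, but some values equal whole reads on shorter transcript spans. On a span of 10 kb, 1 read gave 0.729 TPM (day 2) and 0.653 TPM (day 3) with the SNHG26 guides. With the control guides it gave 0.803 and 0.672 TPM. A read on a longer span therefore gives a lower TPM, although a long gene can also hold reads on short spans. On this scale the mean over the 4 libraries was 27.8 TPM for DUSP6, 11.6 for FGF2, 6.09 for ETV5, 5.87 for ETV4, 1.78 for SPRY4, 1.15 for FGFR1 and 0.744 for SPRY2. DUSP6 lay at the 87.9th percentile of the 13840 genes with any value, FGF2 at the 79.6th and SPRY2 at the 35.3rd. In each library DUSP6 was above FGF2 and FGF2 was above both ETV genes. ETV5 and ETV4 overlapped in level, and so did SPRY4, FGFR1 and SPRY2, so their order is not set by these libraries. The plot of levels by library shows the spread of each gene.

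**Figure D1:**
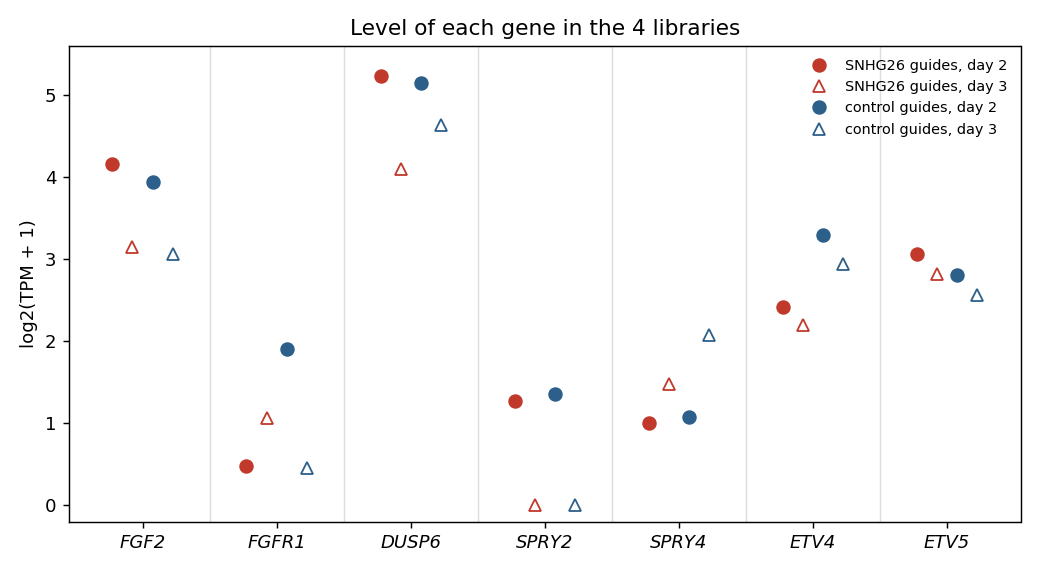
Level of each gene on log2(TPM + 1) (vertical axis) in the 4 libraries, with colour for the guides and shape for the day, 1 point per library. FGF2 and DUSP6 have both day 3 points below both day 2 points, and SPRY4 has them above. ETV4 has both SNHG26 guide points below both control points, and ETV5 has them above. SPRY2 is at 0 on day 3 in both arms.

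FGF2 encodes the basic FGF that is the main ligand of self-renewal in these cells. Its row gives chromosome 4, plus strand, 122826682 to 122898236 (GRCh38), a span of 71555 bases. It stood at 16.9 TPM on day 2 and 7.88 TPM on day 3 with the SNHG26 guides, and at 14.3 and 7.34 TPM with the control guides. Both day 3 libraries were below both day 2 libraries, and within a day the arms were close. The ratio of day 3 to day 2 was 0.465 with the SNHG26 guides and 0.513 with the control guides. The mean was 15.6 ± 1.84 TPM (SD, n = 2) on day 2 and 7.61 ± 0.377 TPM (SD, n = 2) on day 3.

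On log2(TPM + 1), the scale of all changes given here, FGF2 differed by -0.95 (SE 0.25) between day 3 and day 2. The limma unadjusted p was 0.0205, and the adjusted p over 8274 genes was 0.595, so the difference was not past the threshold of 0.05. Between the arms the difference was 0.16 (SE 0.54), with an adjusted p of 0.998. On GENCODE release 29 spans FGF2 had the deepest coverage of the 7 genes, although its values were not resolved into whole reads. The release behind the deposited values is not given, so its read numbers are estimates. The 4 transcripts of GENCODE release 29 have spans from 65621 to 71529 bases. On these spans the values correspond to between 152 and 166 reads (day 2) and 79.1 to 86.3 reads (day 3) with the SNHG26 guides, and to 117 to 127 and 71.8 to 78.2 reads with the control guides. NUDT6, on the opposite strand, overlaps FGF2 by 9540 bases in the table. It was listed at 0.724 and 1.73 TPM with the SNHG26 guides and at 0.530 and 1.38 TPM with the control guides, so it was higher on day 3 in both arms, where FGF2 was lower. The sources do not say if reads were counted by strand, so those in the overlap may belong to either gene.

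FGFR1 encodes the FGF receptor usually named as the main one of human pluripotent cells. It is listed on the minus strand of chromosome 8 from 38400215 to 38468834, a span of 68620 bases. It stood at 0.391 TPM (day 2) and 1.09 TPM (day 3) with the SNHG26 guides, and at 2.75 and 0.374 TPM with the control guides. The highest and the lowest values were the 2 control libraries, so the arms were not apart. The days were not apart either, since FGFR1 was higher on day 3 with the SNHG26 guides and lower with the control guides. The difference between the arms was -0.41 (SE 0.77, limma adjusted p 0.995) and between the days -0.43 (SE 0.74, limma adjusted p 0.888). Without the day 2 control library both became positive, at 0.31 and 0.28.

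Few reads lie behind the FGFR1 values. The day 3 values equal whole reads on a span of 17973 bases, that of FGFR1-227, a transcript with a retained intron in GENCODE release 29. On that span they are 3 reads with the SNHG26 guides and 1 read with the control guides. The day 2 values did not resolve into whole reads on 1 span, and on the listed span they amount to at most 3.68 reads with the SNHG26 guides and 23.5 reads with the control guides. GENCODE release 29 holds 43 transcripts of the gene, 20 of them protein coding. A TPM summed over such different spans can shift with the transcript that a read is assigned to.

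DUSP6 encodes the cytosolic phosphatase that removes the activating phosphates of ERK. It is listed on the minus strand of chromosome 12 from 89347235 to 89352501, a span of 5267 bases. It stood at 36.6 TPM on day 2 and 16.1 TPM on day 3 with the SNHG26 guides, and at 34.5 and 23.9 TPM with the control guides. As for FGF2, both day 3 libraries were below both day 2 libraries. The ratio of day 3 to day 2 was 0.441 with the SNHG26 guides and 0.693 with the control guides, and the days had means of 35.5 ± 1.48 and 20.0 ± 5.49 TPM (SD, n = 2 each). The difference between the days was -0.82 (SE 0.28), with a limma unadjusted p of 0.0437 and an adjusted p of 0.737. Between the arms it was -0.23 (SE 0.49, limma adjusted p 0.998), with 0.08 on day 2 and -0.54 on day 3.

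The DUSP6 values could be resolved into whole reads. Each equals, within 1e-06 read, whole reads on the listed span and on the GENCODE spans of DUSP6-202 (4037 bases) and DUSP6-204 (2100 bases), and in each library 1 combination used the fewest spans. With the SNHG26 guides the day 2 library held 20, 3 and 1 reads on these spans and the day 3 library held 13 reads, all on the listed span. With the control guides the day 2 library held 20 reads on the listed span and 2 on DUSP6-202, and the day 3 library held 11, 4 and 1 reads. The totals were 24 reads (95% exact Poisson interval 15.4 to 35.7) and 13 reads (6.92 to 22.2) with the SNHG26 guides. With the control guides they were 22 reads (13.8 to 33.3) and 16 reads (9.15 to 26.0). The intervals of all 4 libraries overlap and cover counting error only, since amplified reads without molecular identifiers are not independent molecules. Totals and intervals are not scaled to the depth of the library, so their overlap does not compare levels. With every read placed on the listed span, an alternative chosen after seeing the data, the levels became 33.2 and 16.1 TPM with the SNHG26 guides and 33.6 and 20.4 TPM with the control guides. The difference between the days was then -0.85.

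**Figure D2:**
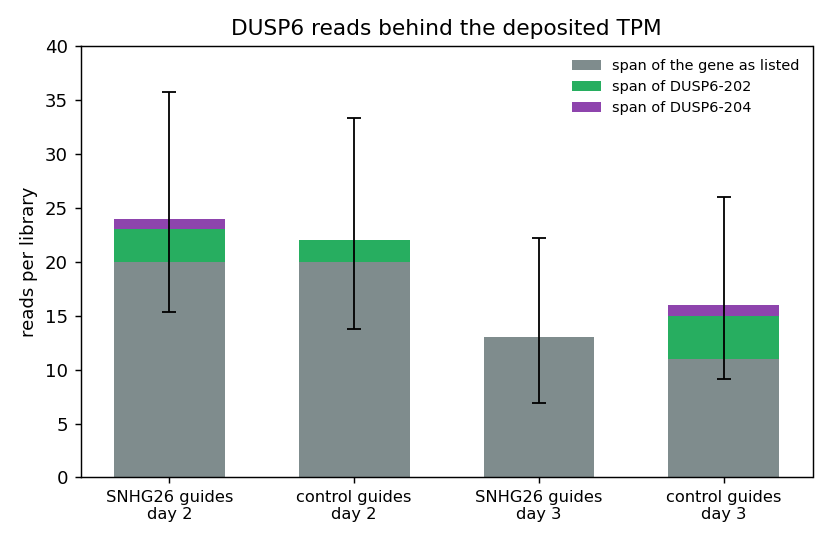
DUSP6 reads in each library (vertical axis), stacked by the span they were counted on, with bars from 0 and error lines for the 95% exact Poisson interval of the total. The day 2 libraries hold 24 and 22 reads and the day 3 libraries 13 and 16, and all intervals overlap. Reads are not scaled to the depth of the library.

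SPRY2 and SPRY4 encode Sprouty proteins, which block the path from receptor to RAS and RAF. SPRY2 is listed on the minus strand of chromosome 13 from 80335976 to 80341126, a span of 5151 bases. It stood at 1.42 and 1.56 TPM on day 2, with the SNHG26 and the control guides, and was listed at 0 on day 3 in both arms. Each day 2 value is exactly 1 read on the listed span. A count of 0 allows up to 3.80 and 3.91 TPM in the day 3 libraries, above both day 2 values, so a difference between the days was not detectable at this depth. With a mean of 0.744 TPM, SPRY2 was below the level needed for testing. With no filter on low values, limma gave SPRY2 an adjusted p of 0.398 between the days (unadjusted 0.00503), which rests on those 2 reads.

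SPRY4 is listed on the minus strand of chromosome 5 from 142310427 to 142326455, a span of 16029 bases. It stood at 0.999 TPM (day 2) and 1.79 TPM (day 3) with the SNHG26 guides and at 1.10 and 3.22 TPM with the control guides. It was the single one of the 7 genes above its day 2 level on day 3 in both arms, with a difference of 0.74 (SE 0.45, limma adjusted p 0.760). The day 2 values equal 1 read on a span of 7296 bases, or 2 reads on 14592 bases, and the SNHG26 guide library of day 3 holds double that number. Neither span is in GENCODE release 29, where the longest protein-coding transcript covers 14575 bases. The day 3 control library amounts to at most 7.69 reads on the listed span. SPRY4-AS1, on the opposite strand, overlaps SPRY4 by 1279 bases in the table. It was listed at 0 and 0.625 TPM with the SNHG26 guides and at 0.110 and 2.99 TPM with the control guides, so its highest library was that of SPRY4.

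Among the feedback inhibitors, DUSP6 and SPRY2 have a RefSeq start site (GRCh38.p14) at the first base of the gene as listed, although 1 GENCODE transcript of DUSP6 starts farther upstream. The 250 bases before that site are shown because ETS factors, the family of ETV4 and ETV5, bind DNA at a GGAA core. Capitals mark each GGAA on either strand (TTCC where it lies on the opposite strand). The DUSP6 window is chr12:89352502-89352751 and the SPRY2 window chr13:80341127-80341376, both printed 5′ to 3′ on the minus strand.
DUSP6: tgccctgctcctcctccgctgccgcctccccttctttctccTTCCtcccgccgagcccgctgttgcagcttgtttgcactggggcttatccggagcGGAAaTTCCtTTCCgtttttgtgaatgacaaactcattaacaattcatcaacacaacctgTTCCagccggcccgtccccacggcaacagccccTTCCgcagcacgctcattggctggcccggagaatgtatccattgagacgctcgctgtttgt
SPRY2: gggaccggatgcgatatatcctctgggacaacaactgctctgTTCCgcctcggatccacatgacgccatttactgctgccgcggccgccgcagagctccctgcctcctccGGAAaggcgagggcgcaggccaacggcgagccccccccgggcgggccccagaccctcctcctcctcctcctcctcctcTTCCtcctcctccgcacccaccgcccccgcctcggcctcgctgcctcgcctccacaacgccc

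The DUSP6 window holds 6 such matches and the SPRY2 window 3. Of 35116 RefSeq windows of the same length, 92.7% hold at least 1 match, 55.1% at least 3 and 9.14% at least 6. The longer ETS sequence CCGGAA, which contains the core, occurs once in the SPRY2 window and not in the DUSP6 window, and 14.5% of all windows hold it on either strand. TGACG, the half-site of cyclic AMP response elements, occurs once in the SPRY2 window and in 21.2% of all windows. The AP-1 sequence TGANTCA occurs in neither window and in 6.57% of all. For FGF2 the bases before the gene as listed cover 101 bases of the RefSeq window and hold none of these sequences. The SPRY4 window lies inside the gene as listed and was not searched, and SPRY2 has other RefSeq start sites farther inside the gene. ETV4, ETV5 and FGF4 have no entry among the RefSeq windows used here, and FGFR1 was left out of the search. A match is a description of letters and does not show binding.

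ETV4 and ETV5 encode ETS transcription factors of the PEA3 group, which are induced by FGF and carry its signal to target genes. ETV4 is listed on the minus strand of chromosome 17 from 43527844 to 43579620, a span of 51777 bases. It stood at 4.34 TPM (day 2) and 3.60 TPM (day 3) with the SNHG26 guides and at 8.83 and 6.70 TPM with the control guides. Both libraries with SNHG26 guides were below both control libraries, at 0.492 of the control level on day 2 and 0.537 on day 3. The means were 3.97 ± 0.521 and 7.77 ± 1.501 TPM (SD, n = 2 each).

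The ETV4 difference between the arms was -0.81 (SE 0.34), the largest in size among the 6 genes tested. Its limma unadjusted p was 0.0726, rank 454 of 8274 genes, and its adjusted p was 0.935. An exact two-sided permutation test of 2 libraries against 2 cannot go below p = 0.333. Between the days the difference was -0.28 (SE 0.49, limma adjusted p 0.890). Read numbers are known only within wide limits. On the median span of its 8 protein-coding GENCODE transcripts, 17936 bases, the values correspond to an estimated 10.7 and 9.89 reads with the SNHG26 guides and 19.7 and 17.9 reads with the control guides. On the shortest and the longest of these transcripts the 4 libraries span 1.07 to 38.1 reads. On the longer listed span the values amount to at most 28.6 to 56.9 reads. As listed, ETV4 lies wholly inside DHX8 on the opposite strand, which stood at 0.170 and 1.03 TPM with the SNHG26 guides and at 1.45 and 1.21 TPM with the control guides, also lower in both libraries of the SNHG26 arm. Some cell type markers also stood lower in both libraries of the SNHG26 arm. The fibroblast markers COL1A1 and COL1A2 summed to 7.95 and 7.99 TPM with the SNHG26 guides and to 10.7 and 11.9 TPM with the control guides. COL1A2 alone was apart (3.79 and 5.01 against 7.47 and 7.72 TPM), while COL1A1 overlapped (4.16 and 2.98 against 3.21 and 4.21 TPM). Of the 9 listed primed markers, DPPA4 was apart, at 210.2 and 182.5 TPM against 314.7 and 266.1 TPM. L1TD1 was apart too, at 83.5 and 87.0 against 97.1 and 89.2 TPM. POU5F1, SOX2, NANOG, LIN28A, OTX2 and DNMT3B overlapped between the arms, and ZIC2 was at 0. Arms apart in this direction were seen in 13.2% of all genes tested. The summed level of the primed markers overlapped, at 1682 and 1816 TPM against 1813 and 1927 TPM. The part of DHX8 or of these markers in the ETV4 difference was not tested. In bulk RNA, fewer cells that express a gene and less RNA per cell cannot be told apart.

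ETV5 is listed on the minus strand of chromosome 3 from 186046314 to 186110318, a span of 64005 bases. It stood at 7.37 TPM (day 2) and 6.08 TPM (day 3) with the SNHG26 guides and at 6.00 and 4.92 TPM with the control guides. Both libraries of the SNHG26 arm were above both control libraries, by a small margin between the day 3 library of one and the day 2 library of the other. The means were 6.73 ± 0.910 and 5.46 ± 0.766 TPM (SD, n = 2 each). The difference between the arms was 0.26 (SE 0.33, limma adjusted p 0.961), with 0.26 on both days. Between the days it was -0.24 (SE 0.29, limma adjusted p 0.830). On the shortest and the longest protein-coding GENCODE transcript the 4 libraries span 20.1 to 63.5 reads.

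The ratio of ETV4 to ETV5 was 0.589 (day 2) and 0.592 (day 3) with the SNHG26 guides and 1.47 and 1.36 with the control guides. The ratio was formed after the values were seen, from genes whose arms were apart in opposite directions, so it adds no evidence to theirs. It uses TPM on spans that differ between the genes, so its size does not compare their transcript numbers. Between libraries it can also shift with the transcript that a read is assigned to.

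Between the guide arms, 0 of the 6 genes passed an adjusted p of 0.05 in limma and 0 had an unadjusted p under 0.05. Over all 8274 genes tested the shares were 0% and 4.07%. The arms did not overlap for ETV4, lower with the SNHG26 guides, and for ETV5, higher. Of all genes tested, 13.2% were lower and 16.1% higher in this sense, so 1 gene each way of 6 is near the background. The median difference over the 6 genes was -0.28, against 0.04 over all genes tested. Taken by day, the median over the 6 genes was 0.0055 on day 2 and -0.22 on day 3. FGF2 and ETV5 were higher and SPRY4 and ETV4 lower with the SNHG26 guides on both days, while FGFR1 and DUSP6 had opposite signs on the 2 days. With 1 library per arm and day, a full interaction model leaves no residual. The difference between the days of the guide effect was instead read by setting the SNHG26 day 3 and control day 2 libraries against the other two, with the guide and day effects left in the error. This gave limma adjusted p-values of at least 0.961 for the 6 genes, with 0 of them under an unadjusted 0.05. Of all genes tested, 0.0967% passed the adjusted and 3.52% the unadjusted threshold.

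**Figure D3:**
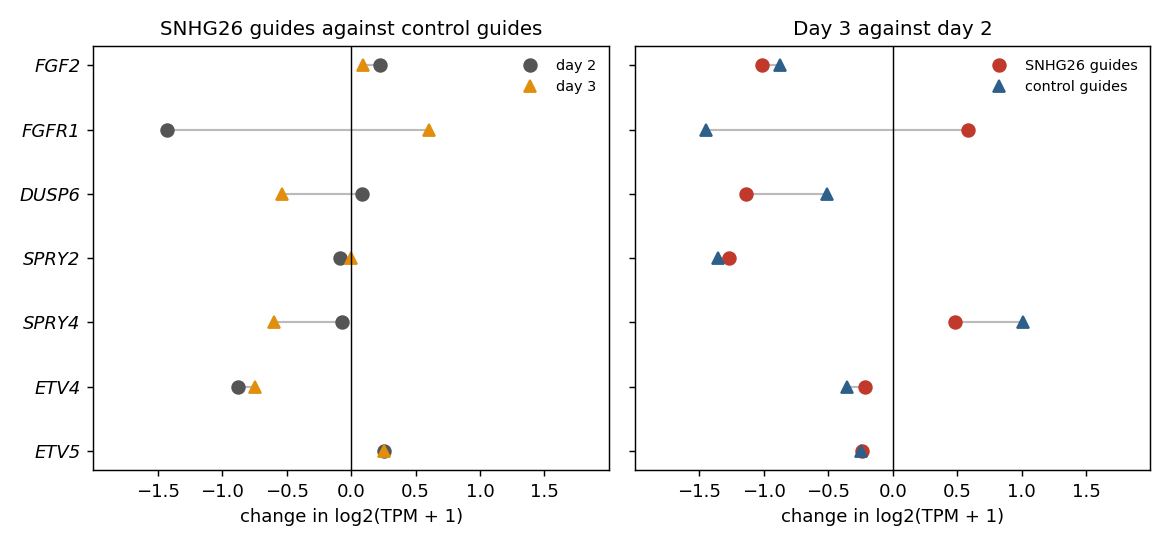
Change in log2(TPM + 1) (horizontal axis) of the 7 genes, on the left between guide arms on each day, on the right between days in each arm. On the right, FGF2, DUSP6, SPRY2, ETV4 and ETV5 lie below 0 in both arms, and SPRY4 above 0, with SPRY2 resting on 1 read against 0 in each arm. On the left, ETV4 lies at -0.88 (day 2) and -0.74 (day 3), ETV5 at 0.26 on both days, and FGFR1 at -1.43 (day 2) and 0.61 (day 3).

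Between the days, 0 of the 6 genes passed an adjusted p of 0.05 in limma, against 0.0363% of all genes tested. FGF2 and DUSP6 had an unadjusted p under 0.05, as did 6.61% of all genes. The days did not overlap for FGF2 and DUSP6, lower on day 3, and for SPRY4, higher. The background shares were 18.4% lower and 17.1% higher. Below its day 2 level in both arms on day 3 were 4 of the 6 genes tested (FGF2, DUSP6, ETV4 and ETV5), where 24.8% of all genes tested were. SPRY4 was above it in both arms, as were 24.3% of all. The median difference between the days was -0.36 over the 6 genes and 0.01 over all genes tested, with -0.23 in the SNHG26 arm and -0.43 in the control arm. The genes share the same 4 libraries, and the labels name no batch of preparation, so the day and the preparation of a library cannot be told apart.

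The wider pathway was read from 90 other genes in 6 lists. Of these, 78 had a row, 12 of them were at 0 in all 4 libraries, and 32 had a mean of at least 1 TPM. None of the 32 passed an adjusted p of 0.05 between the arms or between the days in limma. Unadjusted, 3 were under 0.05 between the arms and 4 between the days, against 4.07% and 6.61% of all genes tested. The medians were -0.08 between the arms and -0.14 between the days, against 0.04 and 0.01 over all genes tested. Arms that did not overlap were seen in 7 of the 32 genes lower and 6 higher with the SNHG26 guides, where 13.2% and 16.1% of all genes tested were. Days that did not overlap were seen in 9 genes lower and 2 higher on day 3, where 18.4% and 17.1% of all genes tested were.

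Among the other ligands and ligand-binding proteins, 6 of 12 listed genes were tested. FGFBP3, a secreted carrier that frees FGFs from the matrix, had the highest level, at 60.3 TPM (day 2) and 29.2 TPM (day 3) with the SNHG26 guides and 44.3 and 20.8 TPM with the control guides. These values are exactly 24, 13, 16 and 9 reads on its listed span. Both day 3 libraries were below both day 2 libraries, as for FGF2, with a difference of -1.04 (limma unadjusted p 0.0264, adjusted p 0.628). FGF11, an intracellular FGF-like factor that is not secreted, stood at 9.52 and 6.38 TPM with the SNHG26 guides and at 13.8 and 24.9 TPM with the control guides, a difference of -1.15 (limma adjusted p 0.935). On the listed span of FGF11 these are at most 6.52 to 24.7 reads. FGF12, of the same group, was listed at 0 in the day 2 control library and at 9.25 to 10.3 TPM in the others. In both libraries with SNHG26 guides its value equals 1 read on 706 bases, within a listed span of 628375 bases. FGF1 and FGF22, named for being at 0 after their values were seen, were listed at 0 in all 4 libraries.

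Of the other receptors and co-receptors, 5 of 14 listed genes were tested. In TPM FGFR4 was the highest FGF receptor, a ranking that does not compare transcript numbers, since spans differ between genes. It stood at 9.74 and 5.82 TPM with the SNHG26 guides and 9.10 and 7.20 TPM with the control guides. On its listed span of 11240 bases these are at most 10.0 to 15.0 reads. The other receptors were also looked up after the values were seen. FGFR2 reached at most 0.109 TPM, and FGFR3, FGFRL1 and the co-receptor KLB were listed at 0 in all 4 libraries. The heparan sulphate proteoglycan GPC2 stood at 10.3 and 6.72 TPM with the SNHG26 guides and at 3.10 and 2.59 TPM with the control guides, which are 11, 8, 3 and 3 reads. Its difference of 1.28 between the arms had a limma unadjusted p of 0.025 and an adjusted p of 0.935. SDC4, a transmembrane proteoglycan, stood between 4.64 and 8.47 TPM.

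Of the signal transducers to ERK, 9 of 21 listed genes were tested. MAPK3, which encodes ERK1, stood at 9.98 and 7.90 TPM with the SNHG26 guides and at 2.64 and 3.70 TPM with the control guides. The arms did not overlap, and the difference was 1.26 (limma unadjusted p 0.0219, adjusted p 0.935). At most 12.9 reads lie behind any of these values. NRAS stood between 19.1 and 33.8 TPM, ARAF between 8.78 and 14.0 TPM and HRAS between 2.01 and 14.5 TPM, and in each of these the arms overlapped. GRB2, the adaptor that brings SOS to the receptor, was named after its values were seen: at 7.80 and 6.88 TPM on day 2 and 2.61 and 2.19 TPM on day 3, it had the lowest unadjusted p between the days among the 32 genes (limma 0.0125, adjusted 0.489).

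Of the other feedback inhibitors, 3 of 14 listed genes were tested. The phosphatase gene DUSP4 stood between 3.13 and 4.14 TPM, with both day 3 libraries above both day 2 libraries (0.21, limma adjusted p 0.867). DUSP7 ranged from 0.853 to 7.62 TPM on 1 to 8 reads. SPRY1 stood at 1.36 and 1.22 TPM with the SNHG26 guides and at 1.49 and 2.91 TPM with the control guides. On its listed span these are at most 1.30 to 3.02 reads. SPRY3 and CBL, looked up after the values were seen, were listed at 0 in all 4 libraries.

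Of the other transcription factor targets, 5 of 10 were tested. EGR1, an immediate early gene induced by ERK, stood at 3.81 TPM (day 2) and 39.3 TPM (day 3) with the SNHG26 guides and at 8.40 and 19.3 TPM with the control guides. These are 2, 23, 4 and 11 reads, higher on day 3 in both arms, the direction opposite to that of FGF2 and DUSP6. The difference of 2.09 had a limma unadjusted p of 0.0193 and an adjusted p of 0.586. ETV1, the remaining ETS factor of the PEA3 group, stood at 9.75 and 5.73 TPM with the SNHG26 guides and at 13.0 and 11.8 TPM with the control guides. Its arms did not overlap, and it was lower with the SNHG26 guides, like ETV4 and unlike ETV5, by -0.65 (limma adjusted p 0.935). Of all genes tested, 13.2% were lower in this sense and 16.1% higher. MYC stood at 15.6 and 17.7 TPM with the SNHG26 guides and at 10.5 and 10.7 TPM with the control guides. The arms of MYC did not overlap either, in the opposite direction to ETV1 (0.60, limma adjusted p 0.935).

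Of the other early response genes, 4 of 7 were tested. IER3 stood at 64.9 and 101.7 TPM with the SNHG26 guides and at 113.1 and 119.5 TPM with the control guides. Its arms did not overlap (-0.51, limma adjusted p 0.935), as for 13.2% of all genes tested in this direction. CCND1, which encodes cyclin D1, was lower on day 3, at 22.9 and 24.7 TPM on day 2 and 15.2 and 11.5 TPM on day 3 (-0.80, limma unadjusted p 0.0367, adjusted p 0.700). EPHA2 stood at 2.07 and 3.54 TPM on day 2 and at 0.823 and 1.06 TPM on day 3, on at most 4 to 14 reads. The plot of pathway lists sets these genes beside the 6 tested members.

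**Figure D4:**
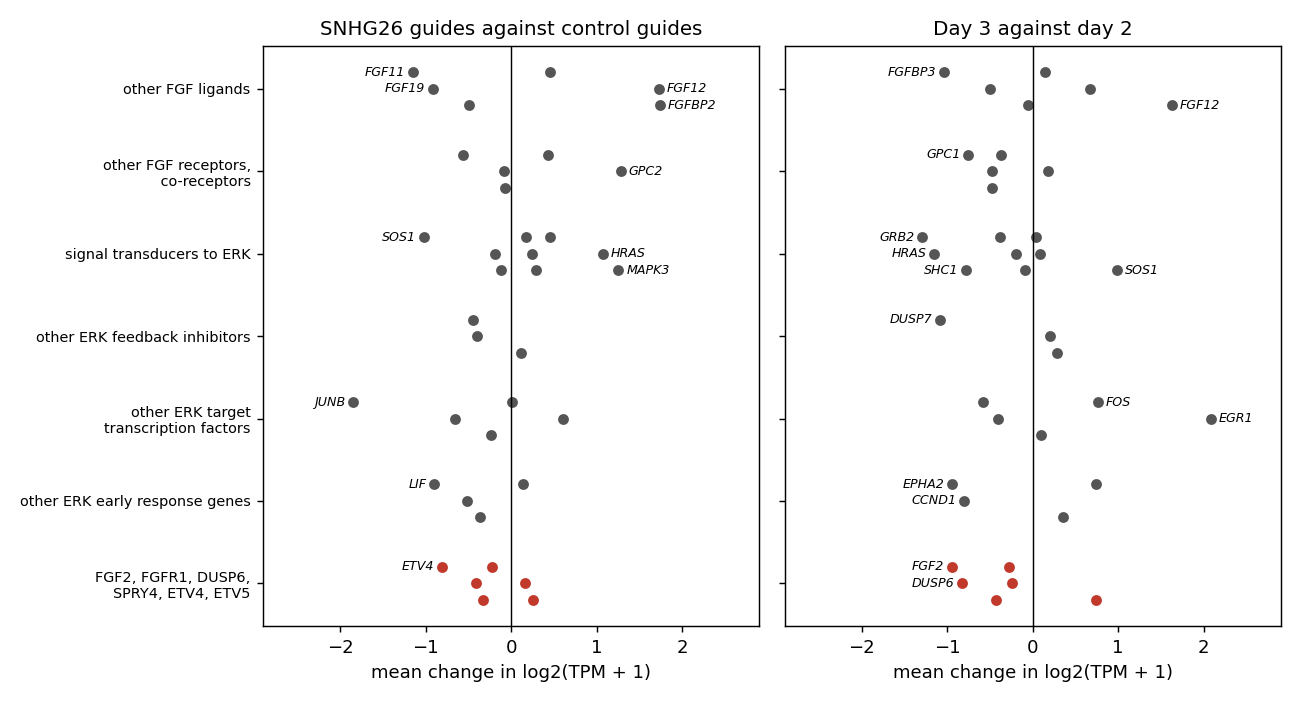
Mean change in log2(TPM + 1) (horizontal axis) of the 32 tested genes of 6 pathway lists (grey) and of the 6 tested genes FGF2, FGFR1, DUSP6, SPRY4, ETV4 and ETV5 (red), between guide arms (left) and between days (right). Each point is 1 gene, and vertical offsets within a list only separate the points. Both panels have tested genes on both sides of 0 in each list, and no gene shown passed the adjusted threshold.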

How the data were processed

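Poly(A) RNA was read as cDNA, amplified for 14 cycles, on a nanopore sequencer. Values are TPM per gene, as deposited by the authors in a single table for all libraries. Per the submitters' processing notes, minimap2 2.24-r1122 and GRCh38 were used. The counting tool, the annotation release and any filter are not given in the sources used here. The length of each gene in the deposited table is its end minus its start plus 1.

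The worth of 1 read in each library was taken from the most frequent product of TPM and span. A value was resolved into whole reads where exactly 1 combination with the fewest spans matched within 1e-06 read. Up to 3 spans and 30 reads were combined for genes with at most 8 possible spans, and 1 span was used for the others, with spans from GENCODE release 29. Tests covered the 8274 genes whose mean reached 1 TPM and ran on log2(TPM + 1) with limma (version 3.58.1, R 4.3.3; linear fit, then eBayes with a trend). P-values were adjusted by Benjamini-Hochberg, with a threshold of 0.05. The comparisons were between the guide arms, between the days, and of crossed pairs of libraries for the difference between the days of the guide effect. As alternatives, the pseudocount was set to 0.1 and 5, and the filter was dropped or raised to 5 TPM. Values were also scaled by quantiles or by median ratios. In others the trend was dropped, or a term called the replicate block was added. This term was the day in the arm comparison and the guide arm in the day and crossed comparisons. It does not stand for separate replicates. Each library was also left out in turn (for the arm and day comparisons of the 8 genes).

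The 8 genes and the pathway lists were chosen with earlier results of these data known. All 8 were to be named. From each wider list the 3 genes with the highest mean are named, together with any gene past the threshold and any with a mean of at least 5 TPM whose arms did not overlap and differed by over 1 on the log2 scale. Genes named outside this rule are marked as such.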

Additional observations from a re-analysis of the deposited data

How the results depend on the processing

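None of the FGF2, FGFR1, DUSP6, SPRY4, ETV4 and ETV5 tests that were run passed the threshold between the arms, between the days or for the difference between the days, and no wider pathway gene passed between the arms. FGFR1 and SPRY4 were not tested at 5 TPM, and no library was left out for the difference between the days or for the wider genes. The lowest limma adjusted p of these 6 genes over the alternatives that kept all libraries was 0.512, for FGF2 between the days. Over all genes, the 3 past the threshold between the days became 0 under pseudocounts of 0.1 and 5, with no filter, quantile scaling, no trend or the replicate block, and the 8 for the difference between the days ran from 0 to 14; none was a member.

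The signs of the member differences were kept in each alternative with all libraries that tested them. The day difference of FGF2 ran from -1.02 to -0.71 and that of DUSP6 from -0.85 to -0.71, and the arm difference of ETV4 from -0.94 to -0.51. SNHG26 ran from -3.47 with a pseudocount of 0.1 to -0.64 with 5, and its limma unadjusted p was 0.0692 with 0.1 and 0.0565 with the replicate block. Same-day libraries deviated from their arm means with a correlation of 0.046 across 8274 genes, and they were not treated as pairs. A correlation over all genes does not show how far the day matters for these genes. The main arm fits left the day change in their error, and the main day fits the guide difference. Blocking on the day moved the arm SE from 0.54 to 0.31 for FGF2 and from 0.49 to 0.32 for DUSP6. It moved from 0.59 to 0.56 for SPRY4 and from 0.77 to 0.91 for FGFR1, with little change for ETV4 and ETV5. With the guide arm as the block, FGF2 between the days stayed at -0.95 (limma adjusted p 0.813). With the day as the block, ETV4 between the arms stayed at -0.81 (limma adjusted p 0.908). In either comparison 0 members were past the adjusted threshold. DUSP6 between the days was above an unadjusted limma p of 0.05 under the block (0.0705), quantile scaling (0.0544), median ratios (0.0529) and no trend (0.0679), which left FGF2 as the 1 member under it.

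Leaving out 1 library leaves 1 arm or day with a lone library, assumed to vary like the others. The arm difference then ran from -0.35 to 0.66 for FGF2, -1.14 to 0.31 for FGFR1, -0.80 to 0.34 for DUSP6, -0.84 to 0.17 for SPRY4, -0.99 to -0.64 for ETV4 and 0.14 to 0.38 for ETV5. The day difference ran from -1.06 to -0.83 for FGF2, -1.15 to 0.28 for FGFR1, -1.09 to -0.55 for DUSP6, 0.45 to 1.04 for SPRY4, -0.72 to 0.16 for ETV4 and -0.37 to -0.11 for ETV5. The sign of the arm difference turned for FGF2 without the SNHG26 day 2 or the control day 3 library, for DUSP6 without the SNHG26 day 3 or the control day 2 library, for FGFR1 without the control day 2 and for SPRY4 without the control day 3 library. The sign of the day difference turned for FGFR1 without the control day 2 library and for ETV4 without that or the SNHG26 day 3 library. The lowest adjusted p of these fits was 0.366, and the unadjusted limma p between the days ran from 0.0416 to 0.0670 for FGF2 and from 0.0201 to 0.179 for DUSP6. Depth limits SPRY2 most, where 0 reads allow more than the day 2 values.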
